A study of Thermothelomyces thermophilus with 14 samples.

Results

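The 3 endoglucanase genes eg-1 (MYCTH_111372), eg-2 (MYCTH_86753) and eg-45 (MYCTH_76901) of the thermophilic filamentous fungus Myceliophthora thermophila, also called Thermothelomyces thermophilus, were followed by RNA sequencing across 7 carbon conditions. They were picked by gene identifier, with earlier results of these data known, and make up 3 of the 9110 genes in the count table. All 3 passed the filter on low counts, which kept 8567 genes. The names are published locus assignments and are not annotated in the count table or in the gene table used here.

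Endoglucanases are secreted enzymes that cut cellulose within the chain and so create new chain ends. Cellobiohydrolases work inward from those ends and release the disaccharide cellobiose, which beta-glucosidases split to glucose, while lytic polysaccharide monooxygenases (LPMOs) cut chains by oxidation. In filamentous fungi related to M. thermophila, cellulase genes are low on glucose or without carbon and are induced by cellulose or by cellobiose, through transcription factors that include CLR-1, CLR-2 and XYR-1. Xylobiose is the matching disaccharide of xylose that is released from xylan.

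All cultures were wild-type ATCC 42464 mycelium, grown beforehand and then kept for 4 h in Vogel's salts with a defined carbon source. The 5 plate groups, in 5 mL in 24-well plates, held no carbon (NoCarbon2), 2% cellobiose (G2), 2% xylobiose (X2), 2% of each disaccharide (G2X2), or 1% glucose with 1% xylose (GX). The 2 flask groups, in 100 mL, held 2% xylan (Xylan) or 1% Avicel, a microcrystalline cellulose, with 1% xylan (XA). Each group had 2 libraries. The G2X2 medium thus held 4% sugar in all against 2% in the other plate media with sugar, and flasks and plates differ in vessel and volume as well as in carbon source.

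Libraries held 17992946 to 25254924 counts assigned to genes. The 2 replicates of a group differed by more than sampling noise in all 7 groups. The labels do not say whether replicates are separate cultures. A p-value here therefore measures only how far these samples differ, and that difference may be technical. No marker list for mycelium was at hand, so that label was not checked. In whole mycelium, fewer expressing cells and less RNA per cell cannot be told apart. Levels are CPM values, that is counts scaled to a common library size after TMM normalization. They are not corrected for gene length, so levels are compared between conditions and not between genes. A change is a log2 fold change ± SE from 1 edgeR quasi-likelihood model of all 14 libraries, and a gene was called, here written as rose or fell, at a Benjamini-Hochberg adjusted p under 0.05 over the 8567 genes.

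The gene eg-1 was very low without carbon and was high wherever cellobiose or Avicel was present. The NoCarbon2 libraries stood at 1.19 and 1.01 CPM, which rest on 29 and 26 counts. The G2 libraries stood at 235 and 106 CPM, and the G2X2 libraries at 78.7 and 98.9 CPM. Every library with cellobiose was therefore above every plate library without it. The X2 libraries stood at 3.43 and 12.1 CPM and the GX libraries at 5.22 and 7.97 CPM, both above NoCarbon2 and overlapping each other. In flasks, eg-1 stood at 3.27 and 3.45 CPM with xylan and at 96.8 and 73.2 CPM with Avicel plus xylan. Ordered by mean, the plate groups ran from G2 at 171 ± 91.4 CPM (SD, n = 2) through G2X2 at 88.8 ± 14.3, X2 at 7.76 ± 6.13 and GX at 6.60 ± 1.94 to NoCarbon2 at 1.10 ± 0.124 CPM. X2 and GX were the only neighbours in that order whose libraries overlapped, though the difference between G2 and G2X2 was not called. The highest plate mean was 155 times the lowest.

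The gene eg-2 had the same low and high conditions over a narrower range. Its NoCarbon2 libraries stood at 64.6 and 39.97 CPM, its G2 libraries at 1536 and 851 CPM and its G2X2 libraries at 1154 and 1503 CPM. With xylobiose eg-2 stood at 142 and 213 CPM, and with glucose plus xylose at 191 and 148 CPM. These 4 libraries lay between those without carbon and those with cellobiose and overlapped neither. In flasks, eg-2 stood at 350 and 294 CPM with xylan and at 960 and 936 CPM with Avicel plus xylan. The plate means were 1328 ± 247 (G2X2), 1194 ± 484 (G2), 178 ± 49.9 (X2), 170 ± 30.7 (GX) and 52.3 ± 17.4 CPM (NoCarbon2). G2X2 overlapped G2 and X2 overlapped GX, and the highest mean was 25.4 times the lowest.

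The gene eg-45 shared the high conditions but had another order among the low ones, with glucose plus xylose below no carbon. Its G2 libraries stood at 118 and 67.3 CPM and its G2X2 libraries at 55.9 and 94.9 CPM. The NoCarbon2 libraries stood at 17.8 and 17.7 CPM, the X2 libraries at 9.20 and 22.6 CPM, on either side of them, and the GX libraries at 6.31 and 7.29 CPM, below all other plate libraries. In flasks, eg-45 stood at 10.4 and 11.6 CPM with xylan and at 56.1 and 51.5 CPM with Avicel plus xylan. The plate means were 92.4 ± 35.5 (G2), 75.4 ± 27.6 (G2X2), 17.7 ± 0.0705 (NoCarbon2), 15.9 ± 9.50 (X2) and 6.80 ± 0.688 CPM (GX). G2 overlapped G2X2 and NoCarbon2 overlapped X2, and the highest mean was 13.6 times the lowest.

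**Figure D1:**
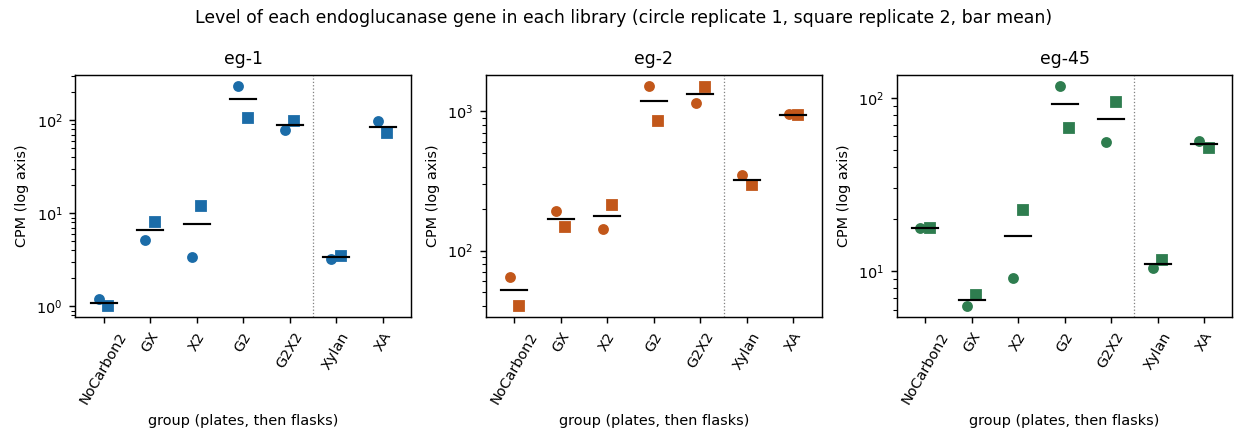
Level of eg-1, eg-2 and eg-45 in each of the 14 libraries, in CPM on log axes; circles are replicate 1, squares replicate 2, bars the group mean, and a dotted line parts plates from flasks. In every panel the G2, G2X2 and XA libraries are the highest, and GX lies above NoCarbon2 for eg-1 and eg-2 and below it for eg-45.

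Within 5 of the 7 groups the same replicate was the higher one for all 3 genes. It was replicate 1 in NoCarbon2, G2 and XA and replicate 2 in X2 and G2X2, while in GX and Xylan the genes differed. In X2 replicate 2 the 10 most abundant genes took 12.4% of counts and the TMM factor was 0.733, against 8.51% and 0.859 in X2 replicate 1. Each library was left out in turn, and for the 3 genes values without it are given beside the results it changed. For the lists of other genes below, only some of the changes are given.

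Cellobiose against no carbon asked what this disaccharide does alone. All 3 endoglucanase genes rose, where 12.3% of the genes tested were called higher. The rise was 7.27 ± 0.62 for eg-1, a fitted 154-fold (adjusted p = 1.04e-05), 4.51 ± 0.36 for eg-2, 22.8-fold (adjusted p = 5.29e-06), and 2.38 ± 0.38 for eg-45, 5.21-fold (adjusted p = 0.000665). Among the 8567 genes, eg-1 had the third largest fitted rise, ranked 3, while eg-2 ranked 37 and eg-45 ranked 156. Each of the 3 calls held in every alternative tried.

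Xylobiose against no carbon gave a smaller rise in eg-1 and eg-2 and none that could be called in eg-45. The rise was 2.80 ± 0.57 for eg-1 (adjusted p = 0.00262) and 1.76 ± 0.32 for eg-2 (adjusted p = 0.00118), so 2 of 3 were called higher against 19.1% of the genes tested. For eg-45 xylobiose gave -0.16 (95% interval -0.97 to 0.65; adjusted p = 0.757), and its sign turned to 0.29 without X2 replicate 1. The rise of eg-1 rested in part on 1 library, being 1.63 without X2 replicate 2 (adjusted p = 0.0364).

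Glucose plus xylose, the sugars that the polymers are built from, split the genes. Against no carbon eg-1 rose by 2.58 ± 0.56 (adjusted p = 0.00608) and eg-2 by 1.70 ± 0.32 (adjusted p = 0.00234), 2 of 3 where 10.9% of genes were called higher. In the same comparison eg-45 fell by 1.38 on the log2 scale (SE 0.38, adjusted p = 0.0204), 1 of 3 where 13.1% of genes were called lower. The fall of eg-45 was not called on leaving out any of the 4 libraries (adjusted p = 0.0604 and 0.0530 without NoCarbon2 replicate 1 or 2, and 0.1303 and 0.0829 without GX replicate 1 or 2), although it kept its size (-1.49 to -1.28).

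**Figure D2:**
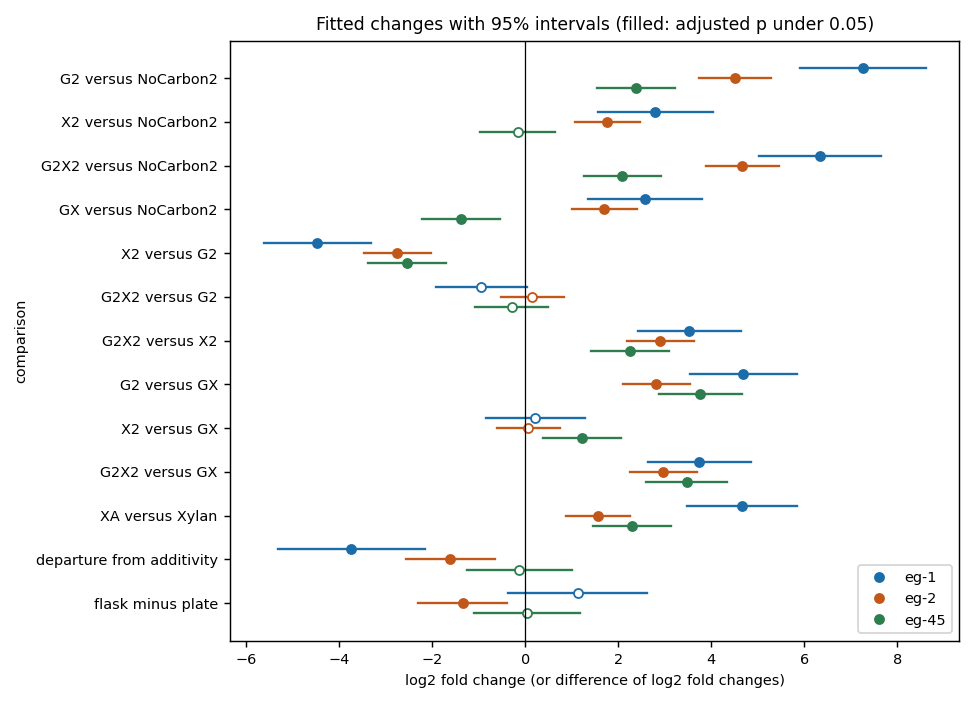
Fitted log2 fold changes of the 3 genes in the 11 comparisons of 2 groups, and differences of such changes in the last 2 rows; lines are 95% intervals and filled points have an adjusted p under 0.05. All 3 genes lie right of 0 for G2 and for G2X2 against NoCarbon2 and against GX and for G2X2 versus X2, all lie left of 0 for X2 versus G2, and G2X2 versus G2 has no filled point.

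The 2 disaccharides were set against each other at an equal 2% and the same 4 h. They differ in the sugar they are made of, glucose in cellobiose and xylose in xylobiose. All 3 genes were lower with xylobiose, where 18.3% of the genes tested were called lower. The difference was -4.47 ± 0.53 for eg-1 (adjusted p = 0.000122), -2.75 ± 0.33 for eg-2 (adjusted p = 0.000112) and -2.54 ± 0.39 for eg-45 (adjusted p = 0.000496). The calls held in every alternative, and leaving out single libraries gave -5.65 to -3.79 for eg-1.

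Each disaccharide was also compared with the monosaccharides. Cellobiose was above glucose plus xylose for all 3 genes, by 4.69 ± 0.53 for eg-1, 2.81 ± 0.33 for eg-2 and 3.76 ± 0.41 for eg-45 (adjusted p = 0.000257, 0.000264 and 0.000163). Of all genes 4.62% were called higher, or 1020 of 8344 with the G2 and GX libraries alone. Total sugar was equal in this comparison, but 1% of the 2% in GX was xylose. Xylobiose could not be told from glucose plus xylose for eg-1 (0.21, 95% interval -0.85 to 1.28) or eg-2 (0.065, 95% interval -0.61 to 0.74). The sign of eg-1 turned without X2 replicate 2 (-0.97) or GX replicate 1 (-0.052), and that of eg-2 without X2 replicate 2 (-0.27), without GX replicate 2 (-0.11) and with upper-quartile scaling (-0.052). Only eg-45 was called higher with xylobiose, by 1.22 ± 0.39 (adjusted p = 0.0255), 1 of 3 where 20.1% of genes were called higher. That call was lost without X2 replicate 2 (0.41, adjusted p = 0.423), without GX replicate 1 or 2 (adjusted p = 0.127 and 0.0851), with plate libraries alone (adjusted p = 0.0515) and with the X2 and GX libraries alone (adjusted p = 0.108).

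With both disaccharides together all 3 genes were high. Against no carbon all 3 genes rose, by 6.33 ± 0.60 (eg-1), 4.67 ± 0.36 (eg-2) and 2.09 ± 0.38 (eg-45), with adjusted p = 1.26e-05, 2.07e-06 and 0.00106, where 19.4% of genes were called higher. Against glucose plus xylose all 3 were higher as well, by 3.75 ± 0.51, 2.97 ± 0.33 and 3.47 ± 0.41 (adjusted p = 0.000373, 0.000101 and 0.000126), where 14.3% of genes were called higher, or 884 genes higher and 1344 lower with upper-quartile scaling in place of 1227 and 1044. Adding cellobiose to xylobiose raised eg-1 by 3.53 ± 0.51, eg-2 by 2.90 ± 0.33 and eg-45 by 2.25 ± 0.38 (adjusted p = 0.000595, 0.000132 and 0.00145), again 3 of 3 where 14.6% of genes were called higher.

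Adding xylobiose to cellobiose changed none of the 3 by a called amount. In that comparison 0 of 3 were called by edgeR and 0 had an unadjusted p under 0.05. There edgeR called 15.3% of genes in either direction (705 up, 603 down). Upper-quartile scaling gave 544 up and 745 down. DESeq2 called 0 of the 3, and 1763 of 8567 genes in all. For eg-1 xylobiose added to cellobiose gave -0.94 (95% interval -1.93 to 0.044; adjusted p = 0.183). For eg-2 it gave 0.15 (-0.52 to 0.83; adjusted p = 0.785), and for eg-45 -0.29 (-1.08 to 0.49; adjusted p = 0.628). The 2 G2X2 libraries of eg-1 lay below the 2 G2 libraries, without overlap, whereas the libraries of eg-2 and eg-45 overlapped. How many of all genes lacked overlap was not counted, so this only describes the libraries. The intervals do not show that xylobiose is without effect: for eg-1 the lower bound allows a fall of 1.93, and the difference was -0.26 without G2 replicate 1. The sign of eg-2 turned without G2 replicate 2 (-0.21) or G2X2 replicate 2 (-0.049), and that of eg-45 without G2 replicate 1 (0.16) or G2X2 replicate 1 (0.037).

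Whether the effects of the 2 disaccharides add on the log2 scale was tested as the xylobiose effect with cellobiose minus the xylobiose effect without it. For eg-1 the rises with cellobiose alone (7.27) and xylobiose alone (2.80) sum to 10.07, and the mixture gave 6.33, a departure of -3.74 ± 0.73 (adjusted p = 0.00560) that was called in every alternative and ran from -4.35 to -2.57 without single libraries. For eg-2 the sum was 6.28 and the mixture gave 4.67, a departure of -1.61 ± 0.44 (adjusted p = 0.0250). That call was lost without NoCarbon2 replicate 2, G2 replicate 1, X2 replicate 2 or G2X2 replicate 1 (adjusted p = 0.0706, 0.115, 0.0878 and 0.0969) with plate libraries alone (0.0564) and with the 4 groups of the contrast alone (0.0780). For eg-45 the sum was 2.22 and the mixture gave 2.09, a departure of -0.13 with a 95% interval from -1.26 to 1.00 (adjusted p = 0.888). Its sign turned to 0.32 without G2 replicate 1, 0.66 without X2 replicate 2 and 0.20 without G2X2 replicate 1. So 2 of 3 were called lower, where 9.5% of genes were called lower. In CPM, mean eg-2 went from 52.3 to 178 with xylobiose alone and from 1194 to 1328 on top of cellobiose. Mean eg-1 went from 1.10 to 7.76 and from 171 to 88.8 CPM. Additivity on the CPM scale was not tested.

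**Figure D3:**
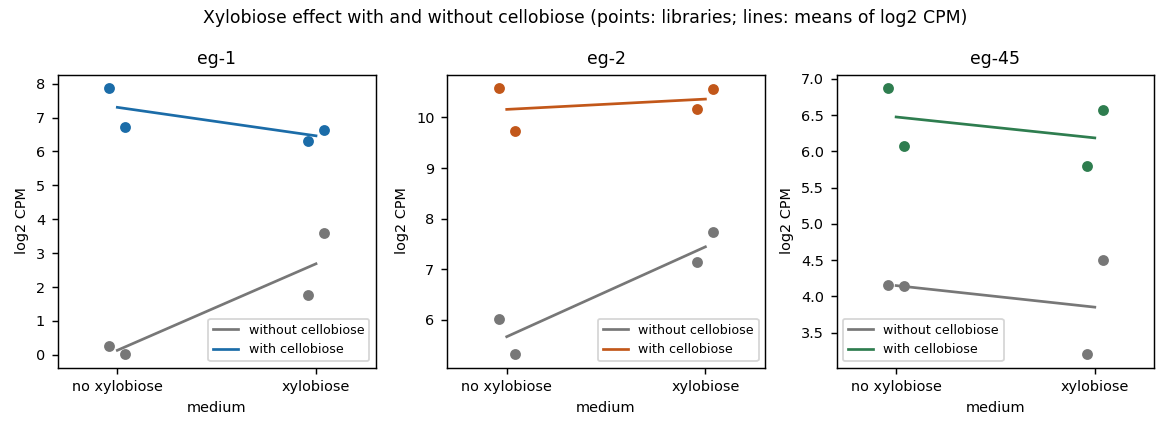
Levels (log2 CPM) of the 3 genes in plates without and with xylobiose; grey is without and colour with cellobiose, points are libraries and lines join the means of log2 CPM. For eg-1 and eg-2 the grey line climbs while the coloured line falls (eg-1) or is nearly flat (eg-2), and for eg-45 the lines run nearly parallel.

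In flasks, part of the xylan was replaced by Avicel at an equal total of 2%. All 3 genes rose, where 14.8% of genes were called higher. The rise was 4.66 ± 0.55 for eg-1, a fitted 25.3-fold (adjusted p = 0.000142), 1.56 ± 0.32 for eg-2, 2.94-fold (adjusted p = 0.00325), and 2.29 ± 0.39 for eg-45, 4.89-fold (adjusted p = 0.00112). The calls held in every alternative. With xylan alone eg-2 stood at 322 ± 39.5 CPM against 178 ± 49.9 CPM in X2 and 52.3 ± 17.4 CPM in NoCarbon2. Vessel and carbon source cannot be told apart in that last set of levels.

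Replacing part of the xylan by Avicel in flasks was compared with adding cellobiose to xylobiose in plates, as XA versus Xylan minus G2X2 versus X2. The gene eg-2 responded less in flasks, by -1.35 ± 0.44 (adjusted p = 0.0324), 1 of 3 where 17.9% of genes were called lower. The call was lost without Xylan replicate 1, XA replicate 1, XA replicate 2, X2 replicate 1 or G2X2 replicate 2 (adjusted p = 0.0861, 0.0838, 0.0915, 0.0922 and 0.103). For eg-1 this value was 1.13 (95% interval -0.37 to 2.62; adjusted p = 0.221). It was 1.77 without X2 replicate 1, where it was called (adjusted p = 0.0238), and -0.051 without X2 replicate 2. For eg-45 it was 0.039 (-1.10 to 1.17; adjusted p = 0.961), and its sign turned without Xylan replicate 1, XA replicate 1, X2 replicate 2 or G2X2 replicate 1 (-0.76 to -0.022). Polymer against disaccharide, replacement against addition, dose and vessel cannot be told apart in this contrast.

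The ratio of 2 of the genes within a library does not depend on library scaling, so it was used to test whether the genes kept a fixed proportion across the 5 plate groups. All 3 ratios differed among the groups in an exact permutation test over the 10 plate libraries (945 partitions, smallest possible p = 0.00106, p adjusted over the 3 ratios). The log2 ratio of eg-1 to eg-45 counts was -3.88 and -4.10 in the NoCarbon2 libraries and 1.00 and 0.65 in the G2 libraries, so that eg-1 had the fewer reads without carbon and the more reads with cellobiose. Its group means spanned 4.82, against at most 0.51 between replicates (exact p = 0.00212, adjusted p = 0.00635). The log2 ratio of eg-2 to eg-45 was lowest in NoCarbon2 (1.86 and 1.18) and highest in GX (4.92 and 4.34), a span of 3.11 against at most 0.72 between replicates (exact p = 0.0138, adjusted p = 0.0201). The X2 and G2 libraries lay between, at 3.95 and 3.23 and at 3.71 and 3.66.

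Among the 5 plate groups the ratio of eg-1 to eg-2 had the smallest span of the 3 ratios. There were 54.3 and 39.5 reads of eg-2 for each read of eg-1 in the NoCarbon2 libraries, 41.5 and 17.6 in X2, 36.6 and 18.6 in GX, 14.7 and 15.2 in G2X2, and 6.53 and 8.03 in G2. All 4 libraries with cellobiose had fewer reads of eg-2 per read of eg-1 than any plate library without it. On the log2 scale the group means spanned 2.65 and replicates differed by up to 1.23 (exact p = 0.0201, adjusted p = 0.0201). This result was not past the threshold without any one of the NoCarbon2, G2 or G2X2 libraries (adjusted p = 0.0519 to 0.1005). In flasks there were 107 and 85.2 reads of eg-2 per read of eg-1 with xylan and 9.91 and 12.8 with Avicel plus xylan, the former above and the latter below every NoCarbon2, X2 and GX library.

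**Figure D4:**
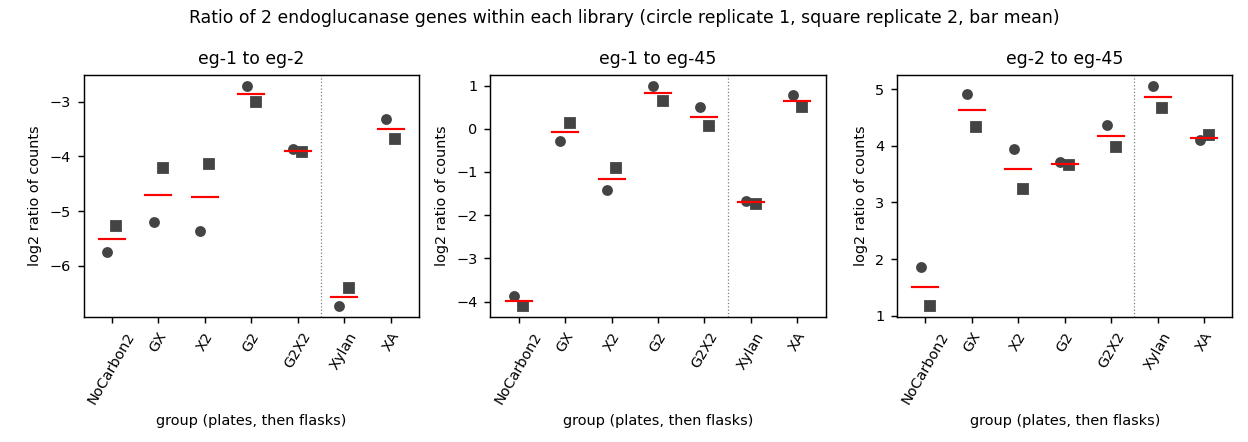
Log2 ratio of the counts of 2 endoglucanase genes within each library; circles are replicate 1, squares replicate 2, bars group means, and a dotted line parts plates from flasks. The ratio of eg-1 to eg-45 runs from about -4 in NoCarbon2 to above 0 in G2, G2X2 and XA, and in the panel of eg-2 to eg-45 NoCarbon2 lies below all other groups.

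The other genes of cellulose breakdown were read from a list of 9 loci that encode the cellobiohydrolases cbh-1 and cbh-2, cellobiose dehydrogenase (cdh), which oxidises cellobiose and can feed electrons to LPMOs, and 6 LPMOs. With cellobiose 8 of the 9 rose and the median was 2.44, against 0.0089 over all genes tested, or 5 of 9 without G2 replicate 1 or NoCarbon2 replicate 2. LPMO9J rose by 6.91 ± 0.72 (adjusted p = 4.15e-05), cbh-2 by 4.28 ± 0.50 (adjusted p = 8.72e-05) and cdh by 4.02 ± 0.57 (adjusted p = 0.000321), so eg-1 and eg-2 lay at the upper end of these rises and eg-45 near the median of the list. With xylobiose 3 of 9 rose (median 1.11 against -0.023 over all genes), or 1 without X2 replicate 2, without NoCarbon2 replicate 2 or with the X2 and NoCarbon2 libraries alone, and 5 without X2 replicate 1. The 3 were LPMO9B (4.12 ± 0.53, adjusted p = 0.000134), LPMO9D (1.96 ± 0.55, adjusted p = 0.0134) and LPMO9H (2.08 ± 0.61, adjusted p = 0.0179), while cbh-1 and cbh-2, at 1.11 ± 0.56 and 0.74 ± 0.44, were not called (adjusted p = 0.138 and 0.205). In G2X2 versus NoCarbon2 8 of 9 rose (median 3.60 against 0.029), where 19.4% of genes were called higher. Fewer of the 9 were called without G2X2 replicate 2 or NoCarbon2 replicate 2, with list medians of 3.13 and 3.29. The share of all genes called higher was 12.3% with cellobiose and 19.1% with xylobiose. With Avicel plus xylan 6 of 9 rose (median 3.0 against 0.013), where 14.8% of genes were called higher. Among the 6 were cbh-1 with 4.02 ± 0.63 (adjusted p = 0.000766) and cdh with 4.12 ± 0.58 (adjusted p = 0.000382). For X2 versus G2, given next, 18.3% of all genes were called lower, and 1649 of 8567 higher. Between the disaccharides, 5 of the 9 were lower and 1 higher with xylobiose than with cellobiose, with a list median of -1.52. Fewer were called lower without either G2 library or without X2 replicate 1. The median ran from -1.94 to -1.22 on leaving out single libraries. In G2X2 versus G2 1 of 9 was called where 15.3% of all genes were. DESeq2 called 2 of 9, and 1763 of 8567 genes in all. The G2X2 and G2 libraries alone gave 3 of 9, and 1757 of 8294 genes. Cellobiose was called above glucose plus xylose for all 9, where 4.62% of genes were called higher. That number was smaller on leaving out any G2 or GX library.

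Glucose plus xylose set eg-1 and eg-2 beside a list in which no gene was called higher. Of the 9 loci 2 fell and 7 were not called, where 13.1% of genes were called lower, with a median of -0.79 against -0.016 over all genes. The 2 were cbh-1 (-2.59 ± 0.59, adjusted p = 0.00798) and LPMO9H (-2.09 ± 0.62, adjusted p = 0.0291), and neither was called without NoCarbon2 replicate 1 or without GX replicate 1. Of the genes not called, LPMO9A (0.78), LPMO9E (0.66) and LPMO9J (0.56) lay above 0 and the others below. In this comparison eg-45 lay on the side of cbh-1, and eg-1 and eg-2 on the other, though the call of eg-45 depended on single libraries as given above.

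A second list held 5 loci for disaccharide use and regulation: the disaccharide transporter cdt-2, the intracellular beta-glucosidase gh1-1 and the regulators clr-1, clr-2 and xyr-1. Between the disaccharides 1 of the 5 was higher and 3 were lower with xylobiose than with cellobiose. Of all genes, 18.3% were called lower there and 1649 of 8567 higher. The higher one was cdt-2 (3.21 ± 0.42, adjusted p = 0.000209). The lower ones were clr-2 (-3.17 ± 0.54, adjusted p = 0.00106), gh1-1 (-2.71 ± 0.32, adjusted p = 9.16e-05) and xyr-1 (-2.25 ± 0.29, adjusted p = 0.000187). With cellobiose 4 of the 5 rose, where 12.3% of genes were called higher, with a median of 1.69 against 0.0089 over all genes. Of the 4, cdt-2 was not called without either G2 library or without NoCarbon2 replicate 2. The regulator clr-2 rose by 3.18 ± 0.53 (adjusted p = 0.000998) and gh1-1 by 2.75 ± 0.32 (adjusted p = 6.36e-05). The fifth, clr-1, stood at -0.79 ± 0.28 (adjusted p = 0.0555) and was called lower by DESeq2 (adjusted p = 0.0293) and without NoCarbon2 replicate 2 (adjusted p = 0.00829). In G2X2 versus NoCarbon2 clr-1 fell by 1.34 on the log2 scale (adjusted p = 0.00293), while the other 4 rose, where 19.4% of genes were called higher. The smallest rise was that of xyr-1, 0.87 ± 0.28 (adjusted p = 0.0270). With the G2X2 and NoCarbon2 libraries alone 3 of the 5 rose, and leaving out some single libraries also lost a call. Over all genes 14.8% were called higher with Avicel plus xylan and 13.1% lower with glucose plus xylose. With Avicel plus xylan all 5 rose (median 2.28 against 0.013 over all genes), of which clr-1 was not called without Xylan replicate 2, XA replicate 1 or XA replicate 2. With xylobiose, where eg-1 and eg-2 rose, clr-2 differed by 0.011 ± 0.52 (adjusted p = 0.989), gh1-1 by 0.034 ± 0.30 (adjusted p = 0.941) and xyr-1 by -0.56 ± 0.28 (adjusted p = 0.135, or 0.0451 with plate libraries alone). The sign of clr-2 turned without X2 replicate 2 (-1.15). In that comparison cdt-2 rose by 4.51 ± 0.45 (adjusted p = 1.94e-05) and clr-1 fell by 0.93 on the log2 scale (adjusted p = 0.0200), the latter not without NoCarbon2 replicate 1, without X2 replicate 1 or with both groups alone. With glucose plus xylose clr-2 differed by 0.75 ± 0.50 (adjusted p = 0.307) and xyr-1 by -0.71 ± 0.28 (adjusted p = 0.0838, or 0.0336 with plate libraries alone), and 2 of the 5 fell, clr-1 by 1.60 (adjusted p = 0.00161) and cdt-2 by 1.46 (adjusted p = 0.0187), the latter not without NoCarbon2 replicate 1 or either GX library.

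**Figure D5:**
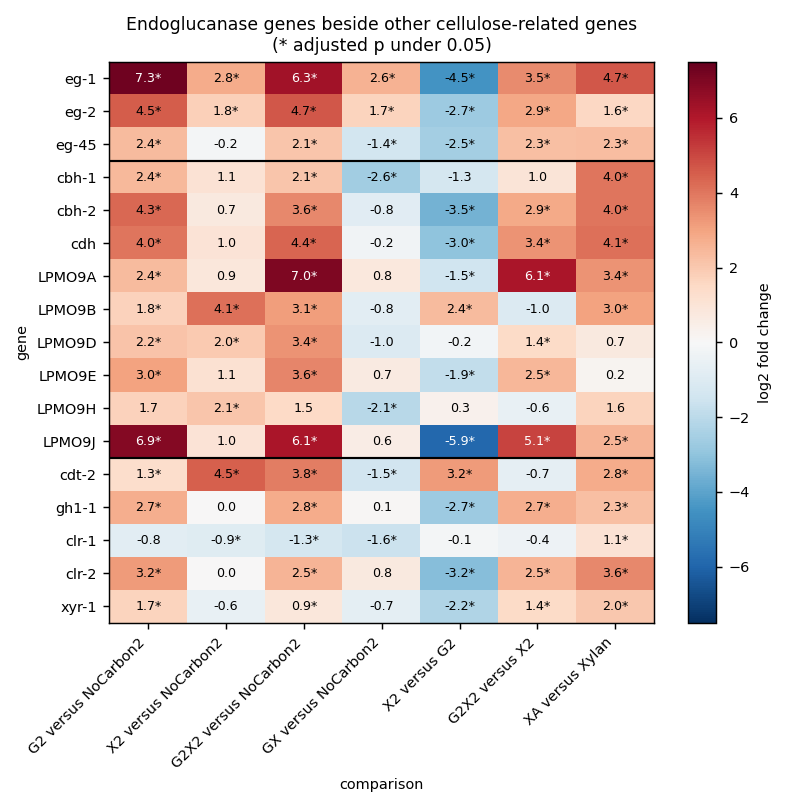
Log2 fold changes of the 3 endoglucanase genes (top block), 9 other genes of cellulose breakdown (middle) and 5 genes of disaccharide use and regulation (bottom) in 7 comparisons. Red is higher, blue lower, and an asterisk marks an adjusted p under 0.05. In the GX versus NoCarbon2 column eg-1 and eg-2 alone carry an asterisk on the positive side.

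The genes most like each endoglucanase gene were ranked by Pearson r of log2 CPM over the 14 libraries, among 6500 genes that reached a mean of 20 CPM in at least 1 group. The values only describe these libraries, which share groups, depth and scaling. For eg-1 the nearest was the unnamed MYCTH_33936 (r = 0.97), which stood at 1.96 CPM in NoCarbon2, 185 in G2, 16.0 in X2, 109 in G2X2 and 5.18 in GX. MYCTH_2300272 (0.96), cdh (0.94), MYCTH_112996 (0.94) and eg-2 (0.93) followed. For eg-2 the nearest were MYCTH_2142789 (0.96), LPMO9J (0.95), MYCTH_33936 (0.95), MYCTH_2064169 (0.95) and eg-1 (0.93). For eg-45 they were cbh-2 (0.96), cdh (0.94), gh1-1 (0.93), MYCTH_81925 (0.92) and MYCTH_81013 (0.92), with no other endoglucanase gene among them. Over the 10 plate libraries alone, eg-1 and eg-2 were each other's nearest gene (r = 0.98), and 2, 3 and 3 of the 5 genes remained among the nearest 5 of eg-1, eg-2 and eg-45. The r of eg-45 was 0.85 with eg-1 and 0.77 with eg-2 over the 14 libraries.

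The adjacent genes were looked up because the strand setting of the counts is not given in the sources used here, and reads of overlapping neighbours could then be mixed. On assembly ASM22609v1, which may not be the build behind the counts, none of the 6 adjacent genes overlapped its endoglucanase gene. With cellobiose, 2 of the 6 fell, where 1218 of 8567 genes were called lower. They were MYCTH_2122637 (-0.97, adjusted p = 0.0343) and MYCTH_2295555 (-1.94, adjusted p = 0.00647), which flank eg-2. MYCTH_2305390 beside eg-1 rose (adjusted p = 0.0444) from a mean of 0.1004 CPM in NoCarbon2 to 0.751 in G2, where 12.3% of genes were called higher. The other 3 were not called. Reads shared with close relatives elsewhere in the genome were not tested.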

How the data were processed

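The deposited table holds read counts per gene for 14 libraries, 1 column each, which the authors did not normalize. Per the submitters' processing notes, TopHat2 2.0.8b and HTSeq 0.13.5 were used. No source used here gives the build, the gene models or whether strand was used. Columns were matched to samples by title, with AX in the table taken as XA in the titles, as the labels name Avicel with xylan AX. Of 9110 genes, 9087 matched a locus tag of assembly ASM22609v1.

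Counts were fitted with edgeR 4.0.16 in R 4.3.3: filterByExpr (minimum count 10), TMM, 7 group means, 7 residual degrees of freedom, robust quasi-likelihood tests, two-sided, for 13 comparisons, with Benjamini-Hochberg adjustment over 8567 genes. SEs were computed from each fold change and its F value. Comparisons share libraries, so they are not independent. Ratios used counts + 0.5 and an exact permutation test. Likeness used a prior count of 2 and the nearest 5 genes. Alternatives were DESeq2 1.42.0, 2 other scalings, no filter, fewer libraries and a replicate block. Genes named are the 3 members, lists of 9 and 5 loci and, for each member, the 5 genes of highest r. Members, lists and this rule were chosen with earlier results of these data known; the adjacent genes, and examples from the lists, were picked later. The gene cre-1 was not used, as no source gave its locus. Protein and promoter sequences were not analysed here.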

Additional observations from a re-analysis of the deposited data

Results flagged for a closer look

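The effect of xylobiose differed between media with and without cellobiose for eg-1 (-3.74 on the log2 scale, adjusted p = 0.00560) and eg-2 (-1.61, adjusted p = 0.0250; edgeR interaction contrast). In eg-1 xylobiose alone gave 2.80 and xylobiose on top of cellobiose -0.94; in eg-2 these were 1.76 and 0.15. The response of eg-2 to replacing xylan by Avicel in flasks was below that to adding cellobiose in plates (-1.35, adjusted p = 0.0324, edgeR contrast). Vessel, dose, carbon source and replacement against addition cannot be told apart there. The calls of eg-2 depend on single libraries. The effects of xylobiose were compared on the log2 scale only. In CPM, mean eg-2 went from 52.3 to 178 with xylobiose alone and from 1194 to 1328 on top of cellobiose.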

How the results depend on the processing

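The 39 results (3 genes in 13 comparisons) were recomputed 447 times: 408 kept direction and side of the threshold, 20 lost a call, 1 gained one and 18 changed sign, all of the last in results that were not called. All alternatives kept 27 of the 39. Apart from leaving out single libraries there were 267 recomputations, which include fits to 1 vessel or to the contrasted groups alone. Only 5 of the 267 changed a call or a sign. With the contrasted groups alone or plate libraries alone, the eg-2 departure from additivity (-1.57 both times) and eg-45 in X2 versus GX (1.21 and 1.18) were no longer called. The fifth was the sign of eg-2 in X2 versus GX with upper-quartile scaling (-0.052).

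Leaving out single libraries gave these ranges where a call or sign changed. For GX versus NoCarbon2 eg-45 ran from -1.49 to -1.28, and for X2 versus NoCarbon2 from -0.96 to 0.29. For X2 versus GX the ranges were -0.97 to 0.83 (eg-1), -0.27 to 0.28 (eg-2) and 0.41 to 1.69 (eg-45). For G2X2 versus G2 they were -0.21 to 0.64 (eg-2) and -0.73 to 0.16 (eg-45). The departure from additivity ran from -1.998 to -1.13 (eg-2) and -0.60 to 0.66 (eg-45). Flask minus plate ran from -0.051 to 1.77 (eg-1), -1.68 to -1.10 (eg-2) and -0.76 to 0.54 (eg-45). The adjusted p of the eg-1 to eg-2 ratio ran from 0.0106 to 0.1005; the other 2 ratios stayed past the threshold. The cause of these changes was not tested. With plate libraries alone 2, 3 and 3 of the 5 genes most like eg-1, eg-2 and eg-45 remained.

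The number of genes called in all moved by over 1.5 times in each of the 13 comparisons. With the contrasted groups alone it went from 2274 to 1456 (G2 versus NoCarbon2), 3308 to 1506 (X2 versus NoCarbon2), 3276 to 1971 (G2X2 versus NoCarbon2), 2060 to 1055 (GX versus NoCarbon2), 2573 to 1170 (G2X2 versus X2), 1549 to 804 (departure) and 899 to 2239 (G2 versus GX). Leaving out single libraries took it as low as 1150 (G2) and 995 (GX versus NoCarbon2), 1525 of 3213 (X2 versus G2), 409 of 1308 (G2X2 versus G2), 1369 (G2X2 versus X2), 219 (G2 versus GX), 1852 of 3277 (X2 versus GX), 1081 of 2271 (G2X2 versus GX), 1203 of 2731 (XA versus Xylan), 778 (departure) and 1915 of 2994 (flask minus plate). Flask minus plate has no fit within 1 vessel.

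With the replicate block 39 of 39 results kept their call; for eg-1 in G2 versus NoCarbon2 it gave 7.29. Replicate numbers are not said to mark a shared batch, and deviations of same-numbered libraries correlated at over 0.1 in 2 of 21 pairs of groups (-0.16 to 0.21). Upper-quartile scaling moved the median of all genes by -0.11 in X2 versus GX, -0.14 in G2X2 versus GX and 0.12 in flask minus plate.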
